A study of Lepidium sativum with 30 samples.

Results

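Tau-class glutathione transferases (GSTUs) are represented here by 8 contigs out of the 48306 in the count table of *Lepidium sativum* (garden cress) seeds: GSTU25a (TC_23016 and a second contig, TC_19975), GSTU25b (TC_66333), GSTU22 (TC_25073), GSTU1 (TC_25093), GSTU8 (TC_25493), GSTU19 (TC_22725) and GSTU15 (TC_30551). The names are those of the closest *Arabidopsis thaliana* genes. The 8 contigs carry 7 names, since GSTU25a has 2 contigs, and GSTU25a and GSTU25b have the same *Arabidopsis* identifier, AT1G17180. The contigs were chosen because the study lists them as more abundant with Myrigalone A (MyA): 8 stand on its 12 h list, 6 also on the part of its 18 h list used here, and GSTU1 also on its 6 h list. Fold changes of MyA over control at 12 h and 18 h, and any other comparison that uses a 12 h or 18 h library, are therefore given below as a description with no test. GSTU15, at a log2 fold change of 1.02 at 12 h, lay just inside the 2-fold limit of that choice, and among the other glutathione-related contigs on the study's lists the ChaC-like contig (0.40 at 12 h) and GSTF4 (-0.03) lay outside it.

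Glutathione transferases couple the tripeptide glutathione to reactive or foreign compounds, and the conjugates are then moved into the vacuole and broken down. The Tau class is a large, plant-specific branch of the family, known for its response to herbicides, safeners, allelochemicals and oxidised lipids. In *Arabidopsis*, GSTU25 also acts on the explosive trinitrotoluene and GSTU19 couples glutathione to the jasmonate precursor 12-oxo-phytodienoic acid (OPDA). MyA is a phytotoxic dihydrochalcone from fruits of *Myrica gale* that delays rupture of the cress endosperm.

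Poly(A) RNA came from whole FR14 seeds ("Keimsprossen", Juliwa) imbibed with 0.5 mM MyA for 6 h, 12 h or 18 h, imbibed without MyA (control) for 6 h or 12 h, or left dry. Each of the 6 groups had 5 libraries, and the fifth MyA 18 h library, which stands apart and was set aside by the study, was left out, so that 29 libraries were used. There was no 18 h control, and MyA 18 h seed was set against control 12 h seed, a comparison that also differs in imbibition time. The paper describes its transcript values as means of biological replicates. The labels do not say if the 5 libraries of a treatment stem from different lots of seed. The p-values below therefore reflect how far the libraries at hand spread, and how much of this spread is technical was not tested. In whole seeds, more cells that make a transcript and more RNA per cell cannot be told apart.

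Library totals ran from 20218374 to 33609057 counts. The dry seed transcripts TIP3;1, an aquaporin of the protein storage vacuole, and LEA18, a late embryogenesis abundant protein, averaged 53.5 ± 17.8 and 137 ± 59.4 CPM in dry seed (SD, n = 5), 9.25 ± 5.07 and 15.9 ± 11.0 CPM in control 6 h seed and 1.50 ± 0.68 and 5.65 ± 2.99 CPM in control 12 h seed. These labelled stages were thus visible in the libraries. A set of 2255 contigs, each at least 4-fold more abundant in the library left out than in the other MyA 18 h libraries, held 4.42% to 14.3% of the counts of the libraries used and contains 0 of the 8 GSTU contigs.

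Levels are given as CPM, a contig's counts scaled to a common library total, after TMM scaling over the 29 libraries, which also corrects each library for its composition. CPM are not divided by contig length, so levels are compared between groups of a contig and not between contigs. The reads of a gene can be split between near-identical contigs, which makes the separate values of GSTU25a, its second contig and GSTU25b uncertain. Of the 8 contigs, 7 reached 5 CPM in at least 4 libraries, as did 22155 contigs in all. Of these 7, 5 would not have reached it without the MyA 12 h and 18 h libraries, whereas GSTU19 and GSTU15 reached it in other groups too. The second GSTU25a contig stayed below and was fitted under a looser filter of 5 counts in each of 4 libraries, which 42831 contigs passed.

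**Figure D1:**
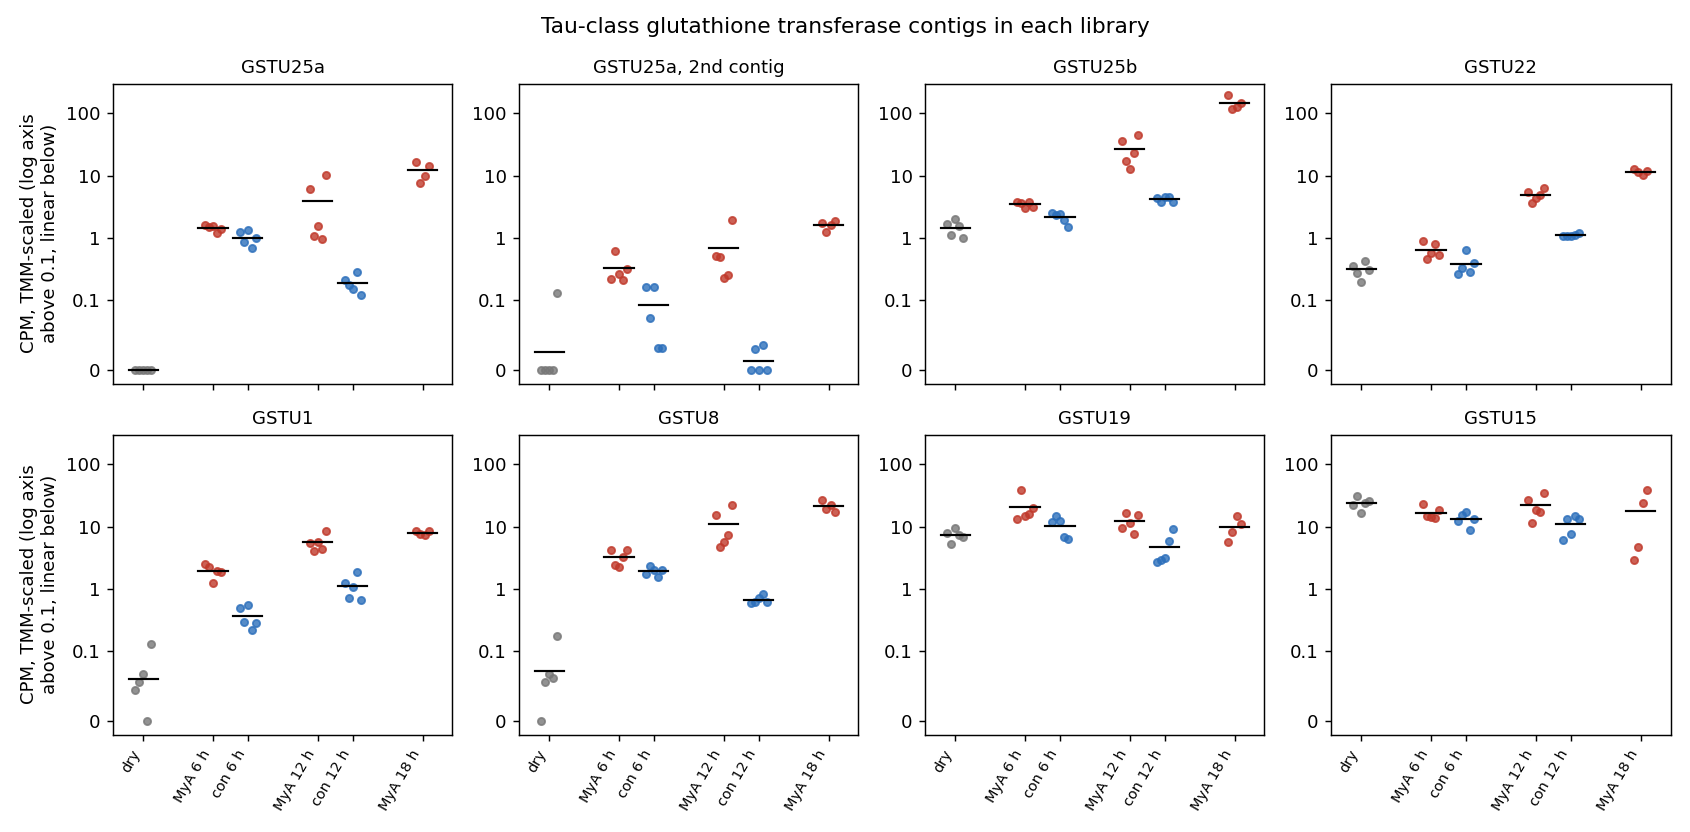
TMM-scaled CPM of each GSTU contig in each of 29 libraries (points) with group means (bars), on an axis that is linear below 0.1 and logarithmic above, for dry seed (grey), MyA seed (red) and control seed (blue). GSTU25b reached 117 to 198 CPM in MyA 18 h seed against 3.74 to 4.58 CPM in control 12 h seed, while GSTU15 in MyA 18 h seed spread from 2.92 to 38.3 CPM.

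The contigs with reads in dry seed and those almost without differed from the start. Under TMM, GSTU15 had its highest mean in dry seed, with 22.4, 30.7, 16.6, 24.4 and 25.7 CPM. Its mean in MyA 12 h seed was 21.9 CPM, and the libraries of these groups overlapped. TMM factors computed with all 30 libraries ran from 0.74 to 0.81 in dry seed and from 1.02 to 1.15 in MyA 12 h seed. Those of the scaling over 29 libraries, on which these CPM rest, are not given here. The order of these groups may thus depend on the scale. GSTU19 was at 5.19 to 9.65 CPM and GSTU25b at 1.01 to 2.01 CPM in dry seed. GSTU25a had 0 counts in all 5 dry seed libraries, and GSTU8 and GSTU1 had between 0 and 4 and between 0 and 3 counts per library. These 3 were the contigs called higher at 6 h of imbibition without MyA.

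Control seed at 6 h was compared with dry seed to ask how the GSTUs respond to imbibition without MyA. According to the paper's methods, MyA was dissolved in DMSO and controls received the solvent. The part of the solvent in these differences was not tested. By edgeR's quasi-likelihood test with Benjamini-Hochberg adjustment over all 22155 contigs, with calls made where the adjusted p was under 0.05 and the fold change over 2, 3 of 7 tested GSTUs rose and 0 fell, where 26.5% of all tested contigs were called higher and 23.4% lower. Calls were thus common in the whole table. The 3 GSTUs called, GSTU25a, GSTU8 and GSTU1, were also those whose libraries did not overlap, as in 37.8% of all tested contigs. The median log2 fold change of the 7 was 0.48, against 0.04 for all tested contigs.

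GSTU8 was at 1.73, 2.38, 2.04, 1.57 and 2.00 CPM in control 6 h seed, against 0, 0.055, 0.067, 0.062 and 0.175 CPM in dry seed, and no libraries overlapped (log2 fold change 4.56, with SE 0.41 and edgeR adjusted p = 1.39e-06). GSTU1 was at 0.22 to 0.549 CPM in control 6 h seed and 0 to 0.131 CPM in dry seed, again with no overlap (2.39, SE 0.55, edgeR adjusted p = 0.00175). GSTU25a had 155 counts over the control 6 h libraries and 0 over the dry seed libraries, which makes it at least 32.1-fold higher when dry seed is set at the limit of 3 counts over the group (edgeR adjusted p = 2.93e-05). The other tested GSTUs were not called. GSTU15 leaned the other way, at 13.4 ± 3.18 CPM in control 6 h seed against 24.0 ± 5.12 CPM in dry seed (SD, n = 5 each). Its log2 fold change of -0.91 (SE 0.20, edgeR adjusted p = 0.0011) passed the p threshold but not the 2-fold limit. Without control 6 h library 3 it was called lower (-1.02, edgeR adjusted p = 0.000877), the only GSTU call in this comparison that leaving out a library added above the filter. GSTU15 was also called lower, making 4 of 7, when the contigs enriched in the fifth MyA 18 h library were left out (-1.11, edgeR adjusted p = 0.000169). These contigs held 10.9% to 14.3% of the counts in dry seed and 4.42% to 7.80% in control 6 h seed.

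The second GSTU25a contig had 14 counts over the control 6 h libraries and 3 over the dry seed libraries, all 3 in library 5, a ratio of 2.90 with an exact counting interval of 0.809 to 15.7. At this depth a difference was not detectable (edgeR adjusted p = 0.171), and without dry seed library 5 it was called higher (log2 fold change 4.30, edgeR adjusted p = 0.022).

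MyA seed at 6 h was compared with control seed at 6 h to ask whether MyA alters the GSTUs before the 12 h libraries that chose them. The 6 GSTUs that can be tested here, those other than GSTU1, all stood higher in MyA seed, but 0 of 6 were called by edgeR, with adjusted p from 0.717 to 0.729, and 0 of 6 by DESeq2, with adjusted p from 0.112 to 0.676. Calls were rare in the whole table as well, at 0.0135% of 22155 contigs higher and 0% of them lower. Taking p under 0.05 without adjustment, 5 of 6 GSTUs were higher by edgeR and 4 by DESeq2, where 2.89% of all tested contigs were higher by edgeR. The 6 had a median log2 fold change of 0.74.

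GSTU25b was at 3.84, 3.64, 3.03, 3.75 and 3.20 CPM in MyA 6 h seed, against 2.50, 2.31, 2.42, 1.98 and 1.50 CPM in control 6 h seed. Every MyA library thus lay above every control library, a pattern shared by 0.397% of all tested contigs, and yet the change was 1.63-fold between the means and was not called (log2 fold change 0.72, SE 0.19, edgeR unadjusted p = 0.00266, adjusted p = 0.717).
GSTU8 had 3.29 ± 0.915 CPM in MyA and 1.94 ± 0.311 CPM in control seed (0.77 in log2, SE 0.23, edgeR adjusted p = 0.717), and 4 of 5 MyA libraries lay above every control library. GSTU25a was alike in this, at 1.46 ± 0.173 and 1.02 ± 0.262 CPM in MyA and control seed (log2 fold change 0.53, SE 0.24), also with 4 of 5 libraries above the control range.

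GSTU19 was at 13.4, 38.6, 14.8, 16.1 and 19.7 CPM in MyA 6 h seed, against 6.36 to 14.7 CPM in control 6 h seed. MyA library 2 stood far above the rest of its group, and the log2 fold change was 0.99 (SE 0.33, edgeR adjusted p = 0.717) with it and 0.64 without it. GSTU22 at 6 h lay under 1 CPM in both groups, with 14 to 26 counts per MyA library and 8 to 20 per control library, and GSTU15 differed least, by 0.35 on the log2 scale (SE 0.20). Without MyA 6 h library 2, too, 0 of 6 GSTUs were called.

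GSTU1 is the exception in size. It was at 2.49, 2.24, 1.23, 1.92 and 1.85 CPM in MyA 6 h seed, against 0.50, 0.298, 0.549, 0.22 and 0.281 CPM in control 6 h seed, with no overlap and a log2 fold change of 2.40 (SE 0.32). It was chosen on these libraries, so no test is given. The second GSTU25a contig, with 52 counts over the MyA 6 h libraries and 14 over the control libraries, was also apart in every library (log2 fold change 1.77, SE 0.52), and was not called under the 5-count filter (edgeR adjusted p = 0.829, where 0.00934% of contigs were called higher).

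Against dry seed, MyA 6 h seed had 4 of the 6 testable GSTUs called higher and 0 lower, beside 26.8% of all tested contigs higher and 23.3% lower. GSTU8 (5.34 in log2, SE 0.43, edgeR adjusted p = 1.71e-07), GSTU25b (1.21, SE 0.21, edgeR adjusted p = 0.00013) and GSTU19 (1.43, SE 0.29, edgeR adjusted p = 0.000509) rose, and GSTU25a, with 230 counts over the MyA libraries and 0 in dry seed, was at least 45.6-fold higher (edgeR adjusted p = 1.73e-06). GSTU22 came close to the 2-fold limit, at 0.98 on the log2 scale (SE 0.32, edgeR adjusted p = 0.0132), and was called when any one of MyA 6 h libraries 2, 3 and 5 or dry seed libraries 1 and 4 was left out (1.01 to 1.11). It was also called, making 5 of 6, under library size (1.48), the reference contigs (1.68), the 5-count filter (1.11), no filter (1.12) and a single fit over 6 groups (1.03). GSTU25b and GSTU19 were called with MyA and not in control 6 h seed, but the difference between these seeds, given above, was itself not called. The second GSTU25a contig, at 52 against 3 counts, was called higher under the 5-count filter, as were 27.3% of the contigs there (3.27 in log2, SE 0.76, edgeR adjusted p = 0.00149), with a ratio of 10.3 and an exact counting interval of 3.34 to 51.7.

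The scale matters in comparisons with dry seed. Relative to TMM, scaling by library size moved the median of all contigs by 0.52 on the log2 scale in control 6 h over dry seed, and scaling by the study's 3 RT-qPCR reference contigs moved it by 0.65. Under the reference contigs 5 of 7 GSTUs were called higher in control 6 h seed, with GSTU25b at 1.14 and GSTU19 at 1.09. GSTU15 in MyA 6 h over dry seed was at 0.15 under the reference contigs and at -0.56 under TMM.

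Between 6 h and 12 h of control imbibition the GSTUs went separate ways. GSTU25b, GSTU22 and GSTU1 stood higher in control 12 h than in control 6 h seed with no overlap between the libraries, as did 23.5% of all tested contigs, and GSTU25a and GSTU8 stood lower with no overlap, as did 30% of them. Log2 fold changes over 1 were seen in 3 of 7 GSTUs (12.9% of all tested contigs) and below -1 in 2 of 7 (14.7%). The control 12 h libraries entered the choice of the contigs, so these values carry no test.

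GSTU8 was at 0.599, 0.618, 0.711, 0.836 and 0.611 CPM in control 12 h seed, against 1.73, 2.38, 2.04, 1.57 and 2.00 CPM in control 6 h seed (log2 fold change -1.41, SE 0.27). GSTU25a was at 0.122 to 0.291 CPM in control 12 h seed and 0.691 to 1.32 CPM in control 6 h seed (-2.29, SE 0.42), and its second contig had 2 counts over the control 12 h libraries and 14 over the control 6 h libraries. Both contigs of GSTU25a and that of GSTU8 were thus lowest, among imbibed seeds, in control seed at 12 h. GSTU22 stood higher, at 1.08, 1.09, 1.08, 1.13 and 1.22 CPM in control 12 h seed, against 0.267, 0.335, 0.646, 0.283 and 0.405 CPM in control 6 h seed (1.63, SE 0.36). Its control 12 h libraries differed little, with an SD of 3.27 counts around a mean of 35.8. GSTU1 (1.70, SE 0.43) and GSTU25b, with 1.96 times the mean of control 6 h seed, stood higher in the same way.

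GSTU25a and GSTU25b, which share their closest *Arabidopsis* gene, were thus opposed in control seed. Of the reads on TC_23016 and TC_66333 together, GSTU25a (TC_23016) took 4.29% in control 12 h seed and 32.4% in control 6 h seed. In MyA seed it took 29.5% at 6 h, 13.5% at 12 h and 7.67% at 18 h.

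At 12 h all 7 GSTUs above the filter had a log2 fold change over 1 in MyA over control seed. This is what chose them, and 9.23% of all tested contigs did so. Of the 7, 5 stood higher with no overlap between libraries, as did 0.474% of all tested contigs. According to the paper, contigs with no match to *Arabidopsis* or *Brassica* may include contamination from other species. By its counts, most contigs that it found higher with MyA at 12 h had no such match. Tested contigs were filtered by level and not by such a match. Shares of all tested contigs, here and in the other comparisons, may thus not describe cress genes alone. The median log2 fold change of the 7 was 2.38, with a range of 1.02 for GSTU15 to 4.39 for GSTU25a. GSTU25b was at 36.3, 17.5, 13.1, 23.5 and 45.4 CPM in MyA 12 h seed, against 4.34, 3.74, 4.57, 4.58 and 3.79 CPM in control 12 h seed (2.72, SE 0.30). GSTU8 was at 15.3, 4.80, 5.70, 7.46 and 22.1 CPM in MyA 12 h seed and 0.599 to 0.836 CPM in control 12 h seed (4.05, SE 0.43). In both, MyA libraries 1 and 5 were the highest.

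GSTU25a spread most within MyA 12 h seed, at 6.12, 1.08, 1.59, 0.975 and 10.2 CPM, against 0.21, 0.177, 0.155, 0.291 and 0.122 CPM in control 12 h seed. The highest MyA library had 10.4 times the level of the lowest, and the SD of log2 CPM was larger than in 98.9% of all tested contigs. Its log2 fold change over control of 4.39 was 3.75 without library 5. Its median in MyA 12 h seed, 1.59 CPM, was close to the 1.49 CPM of MyA 6 h seed. MyA 12 h libraries 2 and 4 lay below every MyA 6 h library, and still above every control 12 h library.

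GSTU22 and GSTU1 were more even. GSTU22 was at 5.39, 3.62, 4.41, 4.87 and 6.44 CPM in MyA 12 h seed, against 1.08 to 1.22 CPM in control 12 h seed (log2 fold change 2.17, SE 0.17). GSTU1 was at 5.55, 4.01, 5.70, 4.41 and 8.54 CPM in MyA 12 h seed and 0.672 to 1.89 CPM in control 12 h seed (2.38, SE 0.31). GSTU19 and GSTU15 are the 2 whose libraries overlapped at 12 h. GSTU19 was at 7.63 to 16.6 CPM in MyA 12 h seed, against 2.75, 2.91, 3.12, 5.85 and 9.26 CPM in control 12 h seed, where library 5 stood highest (1.38, SE 0.36), and GSTU15 was at 11.5 to 35.0 CPM in MyA and 6.14 to 15.0 CPM in control seed (1.02, SE 0.31). GSTU15 was at 0.84 on the log2 scale without MyA 12 h library 5, under the 2-fold limit, and was also under it without MyA library 1 (0.93) and without control library 1 (0.87) or 3 (0.91). It lay just under the limit with library size (0.97), with the 5-count filter or no filter (0.99 each) and in the single fit over 6 groups.

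Transcripts of dry seed and of photosynthesis also stood higher in MyA 12 h than in control 12 h seed. Both dry seed markers had a log2 fold change over 1 (TIP3;1 1.45, LEA18 1.58), and their summed level was 10.7 to 31.1 CPM in MyA and 2.72 to 12.6 CPM in control seed. Of 4 photosynthesis transcripts followed, 3 were over 1, from PSAK at 0.30 to PSBA, a photosystem transcript encoded in the plastid, at 2.06. Their summed level was 124 to 606 CPM in MyA and 58.0 to 161 CPM in control seed. In MyA 18 h over control 12 h seed 0 of the 2 dry seed markers and 3 of the 4 photosynthesis transcripts were over 1, at summed levels of 3.70 to 13.8 and 83.8 to 292 CPM in MyA 18 h seed. Their part in the GSTU differences was not tested.

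Set against control 12 h seed, MyA 18 h seed had 6 of 7 GSTUs over 2-fold higher (3.26% of all tested contigs). Of these 6, GSTU19 (log2 fold change 1.05, SE 0.40) was at 0.84 without MyA 18 h library 3, and was also under the limit without MyA library 4 (0.98) or control library 1, 2 or 3 (0.90 to 0.95) and with library size (0.99). GSTU25b was at 198, 117, 127 and 146 CPM in MyA 18 h seed, against 3.74 to 4.58 CPM in control 12 h seed (log2 fold change 5.11, SE 0.16). GSTU25a reached 16.8, 7.65, 9.91 and 14.2 CPM in MyA 18 h seed (5.96, SE 0.31), and GSTU8 27.1, 18.9, 22.7 and 17.2 CPM (4.97, SE 0.17). GSTU22, at 12.6, 11.5, 10.4 and 11.8 CPM (3.35, SE 0.12), and GSTU1, at 8.52, 7.58, 7.45 and 8.50 CPM (2.84, SE 0.27), were the most even of the GSTUs in MyA 18 h seed. The second GSTU25a contig had 203 counts over the MyA 18 h libraries and 2 over the control 12 h libraries, a ratio of 131 with an exact counting interval of 35.7 to 1087.

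**Figure D2:**
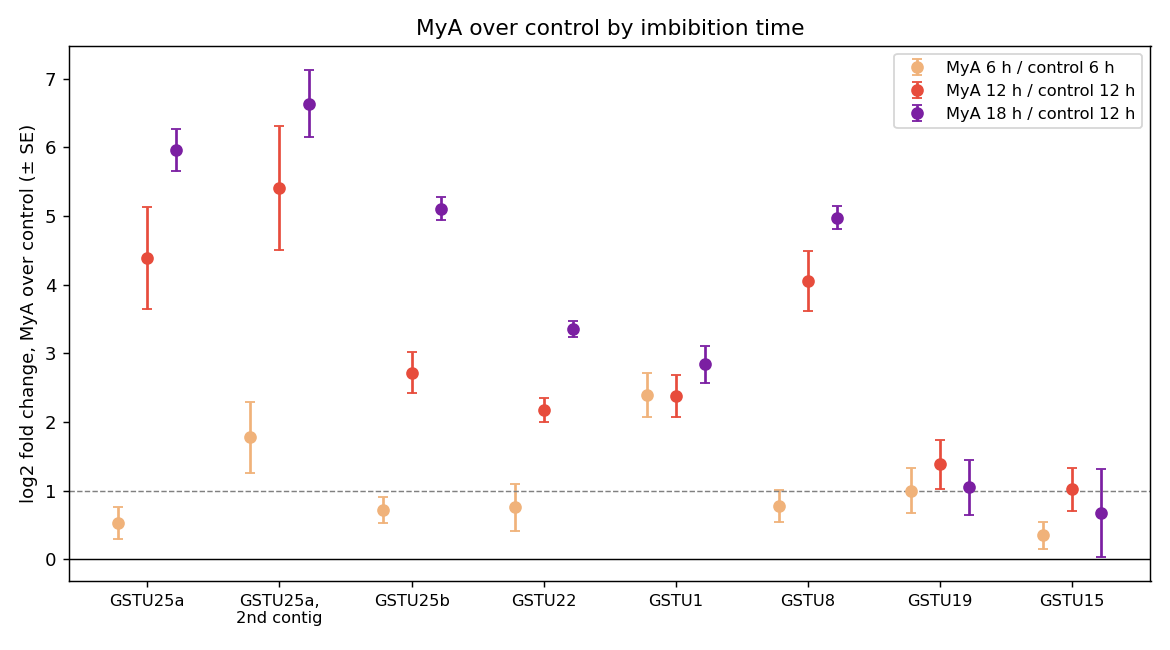
Log2 fold change of MyA over control (edgeR, points, with SE as bars) for each GSTU contig at 6 h and 12 h and for MyA 18 h over control 12 h, with the 2-fold limit dashed. GSTU1 lay at 2.40, 2.38 and 2.84, whereas GSTU25b lay at 0.72, 2.72 and 5.11, and GSTU15 stayed within 0.35 to 1.02.

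The order of response to MyA differed between the GSTUs. GSTU1 stood over 5 times the control level at 6 h and at 12 h (5.27 and 5.06 as ratios of means) and 7.18 times at 18 h over control 12 h. GSTU25b stood at 1.63, 6.46 and 34.9 times in the same order, GSTU8 at 1.69, 16.4 and 31.8 times, and GSTU22 at 1.68, 4.42 and 10.4 times. GSTU19 (1.98, 2.54 and 2.08 times) and GSTU15 (1.26, 1.98 and 1.59 times) had smaller ratios that differed little between the times. Among the other GSTUs above the filter, GSTU1 was the one whose ratio at 6 h was near that at 12 h.

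Within MyA seed, GSTU25b averaged 3.49 ± 0.36 CPM at 6 h, 27.2 ± 13.4 CPM at 12 h and 147 ± 36.5 CPM at 18 h. Levels at 12 h were 32.8% of those at 18 h for GSTU25a, 42.7% for GSTU22, 51.6% for GSTU8 and 70.4% for GSTU1. GSTU19 and GSTU15 were the exceptions, at 122% and 125%, and GSTU19 had its highest MyA mean at 6 h, 20.5 ± 10.4 CPM, where library 2 weighs on the mean. In MyA 18 h over MyA 12 h seed, GSTU25b (log2 fold change 2.43, SE 0.34), GSTU22 (1.22, SE 0.16) and GSTU25a (1.61, SE 0.66) stood over 2-fold higher, 3 of 7 against 2.13% of all tested contigs. GSTU25a was at 2.24 there without MyA 12 h library 5, and GSTU8 (0.96, SE 0.41) was at 1.31 without it. In MyA 12 h over MyA 6 h seed, 5 of 7 stood over 2-fold higher (19.2%), and 4 with no overlap (19.6%). Of these 5, GSTU25a (1.53, SE 0.60) was at 0.82 without MyA 12 h library 5 and at 0.96 with the replicate number as a block. Ordered by mean, 25 of the 40 pairs of neighbouring groups over the 8 contigs had libraries that overlapped, all 5 of them in GSTU19 and all 5 in GSTU15. The same count was not made for all tested contigs, so it does not show if the GSTUs are unusual in this.

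Taking the 8 contigs together, GSTU reads made up 48.5 ± 10.2 CPM at 6 h, 87.5 ± 37.4 CPM at 12 h and 229 ± 41.9 CPM at 18 h in MyA seed (SD, n = 5, 5 and 4), against 33.3 ± 3.17 CPM in dry seed and 29.7 ± 7.13 and 23.1 ± 5.95 CPM in control seed at 6 h and 12 h (n = 5 each). The contigs that supplied the reads changed. GSTU15 held 7.57 ± 6.82% of them in MyA 18 h seed, 46.9 ± 8.13% in control 12 h seed and 71.3 ± 8.84% in dry seed, whereas GSTU25b held 63.8 ± 6.80%, 19.3 ± 5.95% and 4.53 ± 1.70% in the same groups. These are shares of reads, not of molecules, since contig length is not taken out.

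Libraries of the late MyA groups disagreed for some GSTUs and not for others. In MyA 12 h seed libraries 1 and 5 were the highest for GSTU25a, GSTU25b, GSTU22, GSTU8 and GSTU15, 5 of 7, whereas these libraries were the highest for 16.3% of all tested contigs. They were also the highest for 4 of 10 other glutathione-related contigs, including both of SAT1. These libraries had the most counts of the group, 32694757 and 32402298 against 22735661 to 27357141 in the others. The set of contigs enriched in the library left out held 8.04% and 6.89% of their counts, the least of the group, against 9.04% to 11.8% in the others. Of the 4 photosynthesis transcripts, PSBA and PSAB, both encoded in the plastid, were lowest in these libraries, PSBA at 295 and 110 CPM against 401 to 593 CPM in the others, whereas LHCA4 and PSAK were not. TIP3;1 was at 1.51 and 7.15 CPM in them and 1.86 to 5.22 CPM in the others. The part of depth, of this set and of these transcripts in the GSTU spread was not tested.

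In MyA 18 h seed GSTU15 split the libraries, at 2.92, 4.80, 24.1 and 38.3 CPM, a 13.1-fold range, and its SD of log2 CPM was larger than in 99.7% of all tested contigs. Libraries 1 and 2 lay below every control 12 h library and libraries 3 and 4 above every one. Its log2 fold change over control 12 h seed was 0.67 (SE 0.64), or -0.066 without MyA 18 h library 4 and 1.03 without library 1. GSTU19 followed the same split, at 5.63 and 8.29 against 14.6 and 11.2 CPM, and so did DHAR2, a dehydroascorbate reductase that uses glutathione to regenerate ascorbate, at 2.18 and 2.17 against 4.95 and 20.7 CPM. Libraries 3 and 4 were the highest of MyA 18 h seed for 24% of all tested contigs, 2 of 7 GSTUs and 5 of 10 glutathione-related contigs. GSTU25b, GSTU22, GSTU1 and GSTU8 did not take part in it, with the highest library at most 1.70 times the lowest. PSBA was at 235 and 280 CPM in libraries 1 and 2 and 140 and 72.2 CPM in libraries 3 and 4, with PSAB in the same order and LHCA4 and PSAK not. Its part in the split was not tested.

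**Figure D3:**
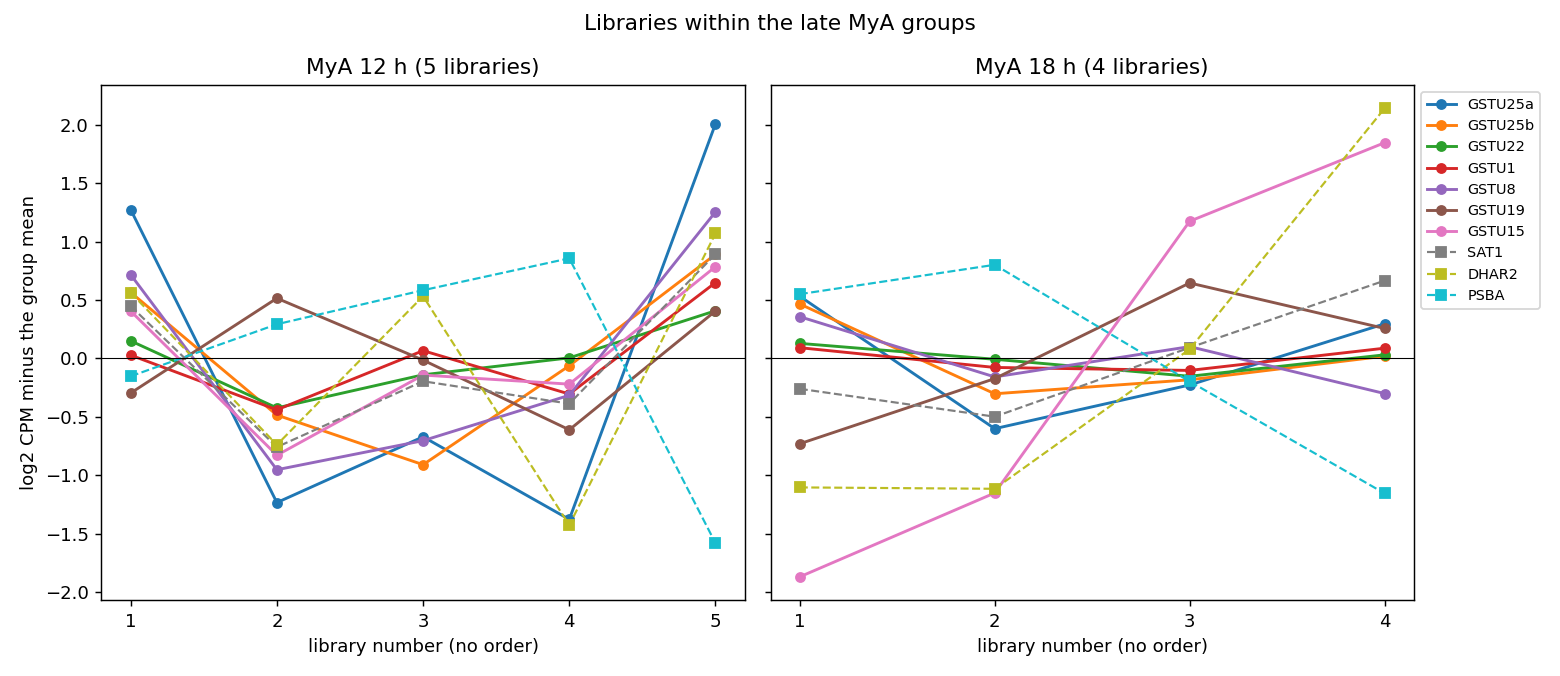
Log2 CPM minus the mean log2 CPM of the group, for each library of MyA 12 h and MyA 18 h seed (x axis, library number with no order), for 7 GSTUs (solid) and SAT1, DHAR2 and PSBA (dashed). In MyA 12 h seed GSTU25a ran from 0.975 CPM in library 4 to 10.2 CPM in library 5, and in MyA 18 h seed GSTU15 ran from 2.92 CPM in library 1 to 38.3 CPM in library 4, while GSTU22 stayed within 10.4 to 12.6 CPM.

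Spread within groups was wider for the GSTUs than for the typical contig. The median SD of log2 CPM was 0.62 for the 7 GSTUs and 0.26 for all tested contigs in MyA 12 h seed, with 7 of 7 above the median of all. In MyA 18 h seed it was 0.34 against 0.19, and in control 12 h seed 0.44 against 0.19. GSTU25a, GSTU22, GSTU1 and GSTU8 had at most 64 counts per library in dry and control seed, and the part of low counts in this spread was not tested.

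Over the 29 libraries 2 pairs of GSTUs had the highest Pearson correlations among the 7. GSTU25a varied with GSTU8 (Pearson's r = 0.97 of log2 CPM) and GSTU25b with GSTU22 (r = 0.97), and each was by this measure the closest of all 22155 contigs to the other. By Spearman's rho GSTU8 ranked 2 for GSTU25a, GSTU22 ranked 75 for GSTU25b and GSTU25b ranked 11 for GSTU22, at rho = 0.92 to 0.93. GSTU1 was near both pairs, at r = 0.90 with GSTU8 and 0.85 with GSTU22. GSTU19 was loosely related to the others (r = 0.03 to 0.41). GSTU15 had only weak correlations with all but GSTU19, at r = -0.17 to -0.12, which do not show an opposite course. These correlations are descriptions, and since the libraries fall into 6 groups, differences between group means enter every r.

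**Figure D4:**
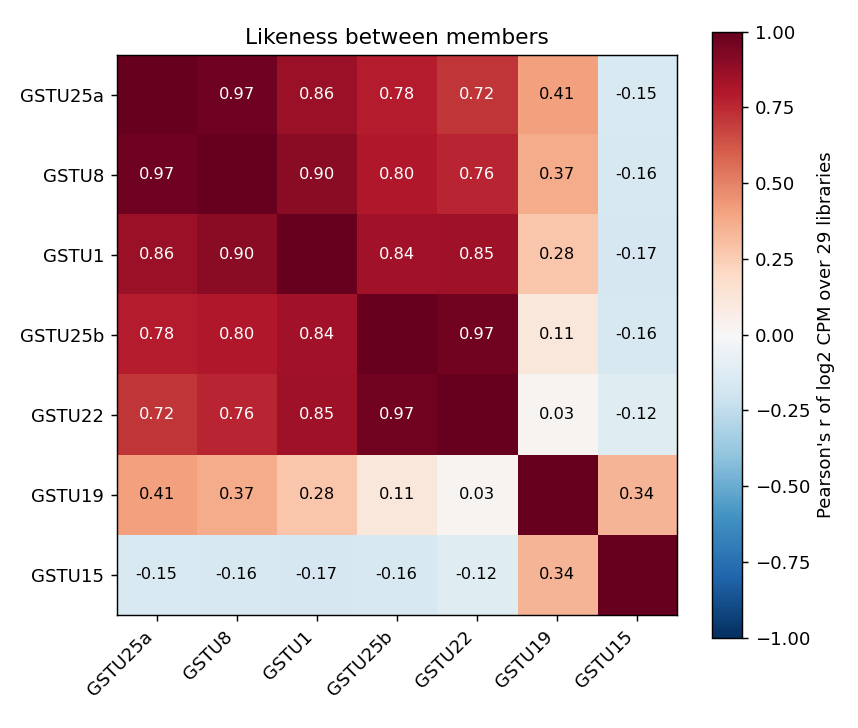
Pearson's r of log2 CPM between 7 GSTUs over 29 libraries, as colour and number. The pairs GSTU25a with GSTU8 and GSTU25b with GSTU22 stand at 0.97, and GSTU19 and GSTU15 stand at 0.41 or less with every other GSTU.

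Among 215 other contigs that the study's lists name, the closest to GSTU25a was DJ1A (AT3G14990), of the DJ-1 family (r = 0.95), and that to GSTU8 was the glucosyltransferase UGT73B5 (AT2G15480, r = 0.92). The closest to GSTU25b was the contig of AT3G44190, an FAD/NAD(P) oxidoreductase (r = 0.92), to GSTU22 the short-chain dehydrogenase SDR3B (AT2G47140, r = 0.93) and to GSTU1 the glucosyltransferase UGT73B2 (AT4G34135, r = 0.93). GSTU19 and GSTU15 had no close match. The nearest were the contig of AT5G64250 for GSTU19 (r = 0.77) and the cytochrome P450 CYP81D8 (AT4G37370) for GSTU15 (r = 0.66).

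Other contigs of the same genes followed the 8 only in part. GSTU19 has 2 further contigs, of which TC_60657 took 9.5% to 10.2% of the reads of the pair at 12 h and 18 h and 14.6% to 16.0% in dry seed and both 6 h groups. TC_60657 was at 2.73 to 5.58 CPM in MyA 6 h seed and 0.974 to 2.64 CPM in control 6 h seed, with no overlap (log2 fold change 1.13, SE 0.27), and was not called (edgeR adjusted p = 0.829). TC_38404 rose to 4.08 ± 1.32 CPM in control 6 h seed, against 0.597 ± 0.273 CPM in dry seed (2.84, SE 0.34, edgeR adjusted p = 1.03e-05), in a comparison where TC_22725 was not called (0.42, SE 0.26). Of GSTU22, the further contig TC_69848 held 23.1% to 28.9% of the reads of the pair in MyA 12 h and 18 h seed and 73.5% in dry seed, and its difference of MyA over control at 12 h was 1.13 (SE 0.24) in log2, beside 2.17 for TC_25073.

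The wider glutathione system was followed in 10 contigs taken from the study's lists, all of them listed as higher at 12 h or 18 h, so that their values at these times are no independent evidence. They are these 3 further GSTU contigs, GSH1 (glutamate-cysteine ligase, the first step of glutathione synthesis), 2 of SAT1 (a serine acetyltransferase that supplies the cysteine precursor), DHAR2, the Phi-class transferase GSTF4, a glutaredoxin (AT5G58530) and a ChaC-like contig (AT5G26220) of the enzymes that break glutathione down. In control 6 h over dry seed 4 of 10 were called higher and 1 lower: TC_38404, both SAT1 contigs (2.67 and 2.95 in log2) and DHAR2 (2.01) rose, and the glutaredoxin fell by 1.18 on the log2 scale (edgeR adjusted p = 0.00104). Of these, SAT1, DHAR2 and the glutaredoxin passed the 5 CPM filter, and TC_38404 was tested under the 5-count filter, where 27% of contigs were called higher and 26.5% lower. In MyA 6 h over dry seed 5 were called higher and 1 lower, beside 27.3% and 26.9% of all contigs under the 5-count filter and the shares at 5 CPM given above.

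In MyA over control at 6 h edgeR called 0 of the 10, with 1 higher (TC_60657) and 1 lower (DHAR2) at an unadjusted p under 0.05, beside 2.54% of contigs higher under the 5-count filter, in which TC_60657 was tested, and 3.91% lower at 5 CPM, in which DHAR2 was tested. DESeq2 was not run on these 10. SAT1 (TC_45268) was at 20.1 to 26.5 CPM in MyA 6 h seed and 12.9 to 26.1 CPM in control 6 h seed, and DHAR2 leaned lower with MyA (log2 fold change -0.56, SE 0.23). At 12 h the same contigs stood higher: SAT1 was at 7.90 to 24.8 CPM in MyA and 2.38 to 4.24 CPM in control seed (2.25, SE 0.31), and DHAR2 at 1.40 to 7.89 CPM in MyA and 0.69 to 1.77 CPM in control seed (2.27, SE 0.47). Their control levels had been higher at 6 h, as with GSTU25a and GSTU8: SAT1 (TC_45268) had 2.38 to 4.24 CPM in control 12 h seed and 12.9 to 26.1 CPM in control 6 h seed. The median log2 fold change of the 10 was 1.28 in MyA over control at 12 h and 2.53 in MyA 18 h over control 12 h. GSTF4 was the latest, at 2.64 to 4.61 CPM in MyA 18 h seed against 0.131 to 0.431 CPM in MyA 12 h seed and 0.147 to 0.509 CPM in control 12 h seed. GSH1 was at 1.75 to 3.33 CPM in MyA 12 h seed and 0.647 to 1.89 CPM in control 12 h seed (1.16, SE 0.31).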

How the data were processed

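Poly(A) RNA of whole seeds was sequenced in 30 libraries. The deposited file holds raw counts per contig: the authors assembled the reads, mapped them with BWA and counted them with HTSeq, with versions not given in the sources used here. Sheets of the study described as FPKM hold these counts and were not used; its lists of changed contigs served only for names and for the choice of contigs.

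Members and lists were chosen with earlier results of these data known. Named contigs are the 8 GSTUs, 10 contigs of the glutathione system on the study's lists and, for each GSTU above the filter, the listed contig with the highest Pearson correlation. R 4.3.3, edgeR 4.0.16 and DESeq2 1.42.0 were used. Contigs with at least 5 CPM (102 to 169 counts) in at least 4 of 29 libraries were tested with edgeR's quasi-likelihood test (TMM, Benjamini-Hochberg, adjusted p below 0.05 and log2 change beyond 1) in fits of the 2 groups compared. Named contigs below that were fitted over contigs with at least 5 counts in 4 libraries. log2 CPM add 0.5 counts. The script was tested on simulated data. Counting intervals are exact at 95% and, like the limit of 3 counts, cover counting error only. No 2 libraries of a group agreed within sampling noise.

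The alternatives were DESeq2, RLE factors, library size, 3 reference contigs, the looser count filter, none at all, one fit with all 6 groups, the replicate number as a block, no fold threshold, Spearman correlation, the fifth MyA 18 h library included, contigs enriched in it left out, and each library left out in turn.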

Additional observations from a re-analysis of the deposited data

Results flagged for a closer look

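Of 47 contig and group combinations of the GSTUs with differing values, 4 had a library far from the others of its group. The rule used flags about 1 in 20 among normally distributed values. Most of the flags fell on the second GSTU25a contig, whose low counts are not so distributed, so the 4 cannot be set against that rate. GSTU19 was at 38.6 CPM in MyA 6 h library 2, against 13.4 to 19.7 CPM in the other MyA 6 h libraries. The second GSTU25a contig, at few counts, was at 0.617 CPM in MyA 6 h library 2 (0.214 to 0.323 CPM in the others), 1.98 CPM in MyA 12 h library 5 (0.232 to 0.512 CPM in the others) and 0.131 CPM in dry seed library 5 (0 in the others).

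GSTU8 went opposite ways between 6 h and 12 h: its mean at 12 h was 3.37 times that at 6 h in MyA seed, with every MyA 12 h library above every MyA 6 h library, and 0.347 times in control seed, with every control 12 h library below every control 6 h library. The difference between these courses was not tested, since the 12 h libraries chose the contig.

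In the fifth MyA 18 h library, scaled with all 30, 7 of the 8 contigs stood above every control 12 h library. The set of contigs enriched in this library held 34.7% of its counts. The share of all tested contigs above the control range there was not computed. The 8 contigs were chosen as higher with MyA, so this count is a description and no independent evidence. GSTU25b was at 222 CPM, GSTU8 at 35.3 CPM, GSTU19 at 24.6 CPM, GSTU22 at 10.9 CPM, GSTU1 at 8.12 CPM, GSTU25a at 3.39 CPM and its second contig at 1.99 CPM. GSTU25a was below the other MyA 18 h libraries (7.51 to 16.3 CPM), and GSTU15, at 3.62 CPM, was below every control 12 h library (6.15 to 14.7 CPM).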

How the results depend on the processing

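Of 156 recomputed counts and medians of the GSTUs, 154 were close to the reported value. With scaling by the reference contigs, 5 of 7 GSTUs in place of 3 were called in control 6 h over dry seed, and with Spearman correlation 1 of 7 GSTUs had the same closest named contig. Values of single contigs were recomputed 1216 times, most of them in the 5 comparisons with no test, where no call could be lost or gained. Among the tested values none lost a call, 15 gained one and 2 changed sign: GSTU22 in control 6 h over dry seed (0.21, or -0.053 to 0.39 with a library left out, the lowest without control 6 h library 3) and GSTU15 in MyA 6 h over dry seed with the reference contigs (0.15). Sign changes of untested values were counted only for log2 fold changes over 1 in size, so those of GSTU15 given below are not in this count. Leaving out each library, the GSTUs called were 3 to 4 of 7 in control 6 h over dry seed, 0 of 6 throughout in MyA over control at 6 h and 4 to 5 of 6 in MyA 6 h over dry seed. GSTU15 in MyA 18 h over control 12 h seed was at 0.67, or -0.066 without MyA 18 h library 4. In MyA 18 h over MyA 12 h seed it was at -0.34, or 0.012 without MyA 18 h library 1.

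With the replicate number as a block, 3 of 7, 0 of 6 and 4 of 6 GSTUs were called in the same order. Same-numbered libraries of MyA and control at 6 h correlated at 0.05 to 0.79, 3 of 5 best with their own number, and in MyA 18 h and control 12 h at -0.45 to -0.16, so the numbers were not taken as pairs. Low counts limit GSTU22, GSTU1, GSTU8 and both GSTU25a contigs in dry and control seed.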
